A study of Homo sapiens with 14 samples.

Results

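The cholesterol efflux genes controlled by the liver X receptors were followed in RS4;11 cells exposed to dexamethasone. The members were ABCA1, ABCG1, NR1H3, NR1H2 and MYLIP, and every probe set that the array annotation pairs with exactly 1 of these genes was taken. This gave 7 probe sets of 4 genes, out of 19070 probe sets with exactly 1 gene (11963 genes) and 22277 probe sets in all. ABCA1 has 3 of them, ABCG1 has 2, and NR1H3 and MYLIP have 1 each. NR1H2 had no such probe set and was not analysed here. The genes were selected on earlier values of these same arrays, with the difference of ABCA1 between 24 h and 8 h in view. All ABCA1 differences are therefore given as a description with no p-value.

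RS4;11 is a human leukemia line of early B-lineage cells with a rearranged KMT2A gene. Untreated cells (4 arrays), cells after 8 h of dexamethasone at 10 nM (5 arrays) and cells after 24 h of the same dose (5 arrays) were profiled on Affymetrix arrays. All 3 groups had first been grown in serum stripped of hormones with charcoal and dextran, and dexamethasone was added in ethanol. Cells cultured for those times without the drug were not profiled, so time in culture cannot be told apart from dexamethasone. By the labels there were 5 runs. Day 1 had runs 1 and 2, and days 2, 3 and 4 had 1 run each, runs 3 to 5, of which run 5 lacks an untreated array.

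Liver X receptors are nuclear receptors that pair with retinoid X receptors and are switched on by oxysterols, which accumulate when a cell holds surplus cholesterol. In macrophages they are known for raising ABCA1 and ABCG1, the transporters that move cholesterol out to apolipoprotein A-I and to high-density lipoprotein. They also raise MYLIP, a ubiquitin ligase that marks the low-density lipoprotein receptor for breakdown and so limits uptake. NR1H3 encodes the alpha form of the receptor and NR1H2 the beta form.

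The start of ABCA1, the member whose values vary most, is shown because a direct repeat of the kind bound by liver X receptors lies in it. The window runs from 250 bases before to 50 bases after the RefSeq start site, at chr9:104928106-104928405 on the minus strand of GRCh38.p14. Capitals mark the closest match to that repeat.
ABCA1 promoter: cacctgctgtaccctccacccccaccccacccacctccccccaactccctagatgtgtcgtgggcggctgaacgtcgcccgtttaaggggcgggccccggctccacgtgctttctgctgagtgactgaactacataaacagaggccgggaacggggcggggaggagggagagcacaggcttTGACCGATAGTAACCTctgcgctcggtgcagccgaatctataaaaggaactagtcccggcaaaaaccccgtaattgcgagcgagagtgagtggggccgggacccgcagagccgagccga
The motif searched was the hexamer AGGTCA repeated in the same direction with 4 letters between, on both strands, with up to 2 mismatches. The match starts at position -69 from the start site, has 2 mismatches and reads AGGTTACTATCGGTCA on the opposite strand. Among all 35116 RefSeq promoter windows of this length, 822 (2.34%) held such a match. The hexamers AGAACA and TGTTCT spaced by 3 letters, the pattern bound by the glucocorticoid receptor, had no match in the ABCA1 window with the same allowance, and 1.41% of all windows held one. The letters GGGCGG occurred 3 times in the ABCA1 window and 3 times in the MYLIP window at chr6:16128836-16129135, and 45.0% of all windows held them. The MYLIP window and the 4 NR1H3 windows held neither repeat. A match describes these letters only.

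Expression was read as deposited log2 values from robust multi-array averaging (RMA), so a difference of 1 is a doubling. These are values of cell populations, in which fewer cells of a type and less RNA per cell cannot be told apart. Array medians lay between 6.03 and 6.05 in untreated cells, between 6.03 and 6.09 at 8 h and between 6.07 and 6.11 at 24 h. Genes known to respond to glucocorticoids were read as a check of the labels. TSC22D3, a direct target of the glucocorticoid receptor, was higher than in untreated cells by 2.69 ± 0.07 after 8 h (limma adjusted p = 2.06e-13) and by 3.09 ± 0.07 after 24 h (adjusted p = 1.17e-14), as log2 difference ± SE. FKBP5, a chaperone of the receptor, was higher by 2.49 ± 0.23 after 8 h (adjusted p = 9.55e-07) and by 2.79 ± 0.23 after 24 h (adjusted p = 5.16e-08). NR3C1, the receptor itself, was higher by 0.58 ± 0.06 after 8 h (adjusted p = 1.67e-06) and by 0.74 ± 0.06 after 24 h (adjusted p = 2.19e-08). Of 9 B-lineage markers measured, 8 had a mean above the median of all probe sets, and the exception was DNTT. Of 13 monocyte and macrophage markers measured, 0 did, and 9 lay in the bottom quartile. Their mean level per array ran from 4.08 to 4.14 in untreated cells, from 4.03 to 4.13 at 8 h and from 4.16 to 4.30 at 24 h, with LYZ, CD163 and ITGAM called higher and CSF1R lower at 24 h against untreated cells. Their part in the results below was not tested.

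ABCA1 was higher after 24 h of dexamethasone than at 8 h or in untreated cells, on both probe sets that varied. On probe set 203505_at, runs 1 to 4 gave 6.12, 6.19, 5.55 and 5.21 in untreated cells. After 8 h the values of runs 1 to 5 were 5.81, 5.83, 6.56, 6.44 and 6.54. After 24 h they were 7.58, 7.43, 8.29, 8.61 and 8.54. Every 24 h array lay above every other array, while the 8 h arrays overlapped the untreated arrays. The mean was 8.09 ± 0.55 at 24 h (SD, n = 5) against 5.76 ± 0.47 in untreated cells (SD, n = 4), a log2 difference of 2.33 with an SE of 0.27, or 5.02-fold. Against the 8 h mean of 6.24 ± 0.38 (SD, n = 5) the difference was 1.86 with an SE of 0.26, or 3.62-fold. The 8 h mean differed from untreated by 0.47, with a 95% interval from -0.11 to 1.05.

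Probe set 203504_s_at, which is dimmer, gave the same picture. Its values were 4.90, 4.89, 4.16 and 3.91 in untreated cells of runs 1 to 4. In runs 1 to 5 they were 4.52, 3.99, 5.48, 5.20 and 4.85 after 8 h of the drug, and after 24 h 6.61, 6.14, 7.11, 7.42 and 7.31. Again no 24 h array overlapped an array of another group. The 24 h mean exceeded the untreated mean by 2.45 with an SE of 0.31 and the 8 h mean by 2.11 with an SE of 0.29. Among all 19070 probe sets, 6 had a larger 24 h against 8 h difference than 203504_s_at and 15 had a larger one than 203505_at. Against untreated cells 96 and 114 did. ABCA1 was chosen with its 24 h against 8 h difference in view, so a high rank on that difference follows from the choice. The ranks against untreated cells share the same 24 h arrays. The arrays of the 2 probe sets followed each other with a Pearson correlation of 0.986 over the 14 arrays, which share groups and runs.

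The third ABCA1 probe set, 216066_at, stayed near the dim end of the array. Its values ran from 3.89 to 4.05 in untreated cells, from 3.71 to 4.12 at 8 h and from 3.80 to 4.22 at 24 h. All 3 groups overlapped, and the 24 h against untreated difference was 0.03, with a 95% interval from -0.18 to 0.25. Its mean over all arrays was above that of 20.5% of all probe sets, against 41.9% for 203504_s_at and 54.8% for 203505_at. Which part of the transcript each probe set reads is not given in the sources used here. A mean over the 3 probe sets of ABCA1 lowers the 24 h against untreated difference to 1.60 and the 24 h against 8 h difference to 1.35.

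**Figure D1:**
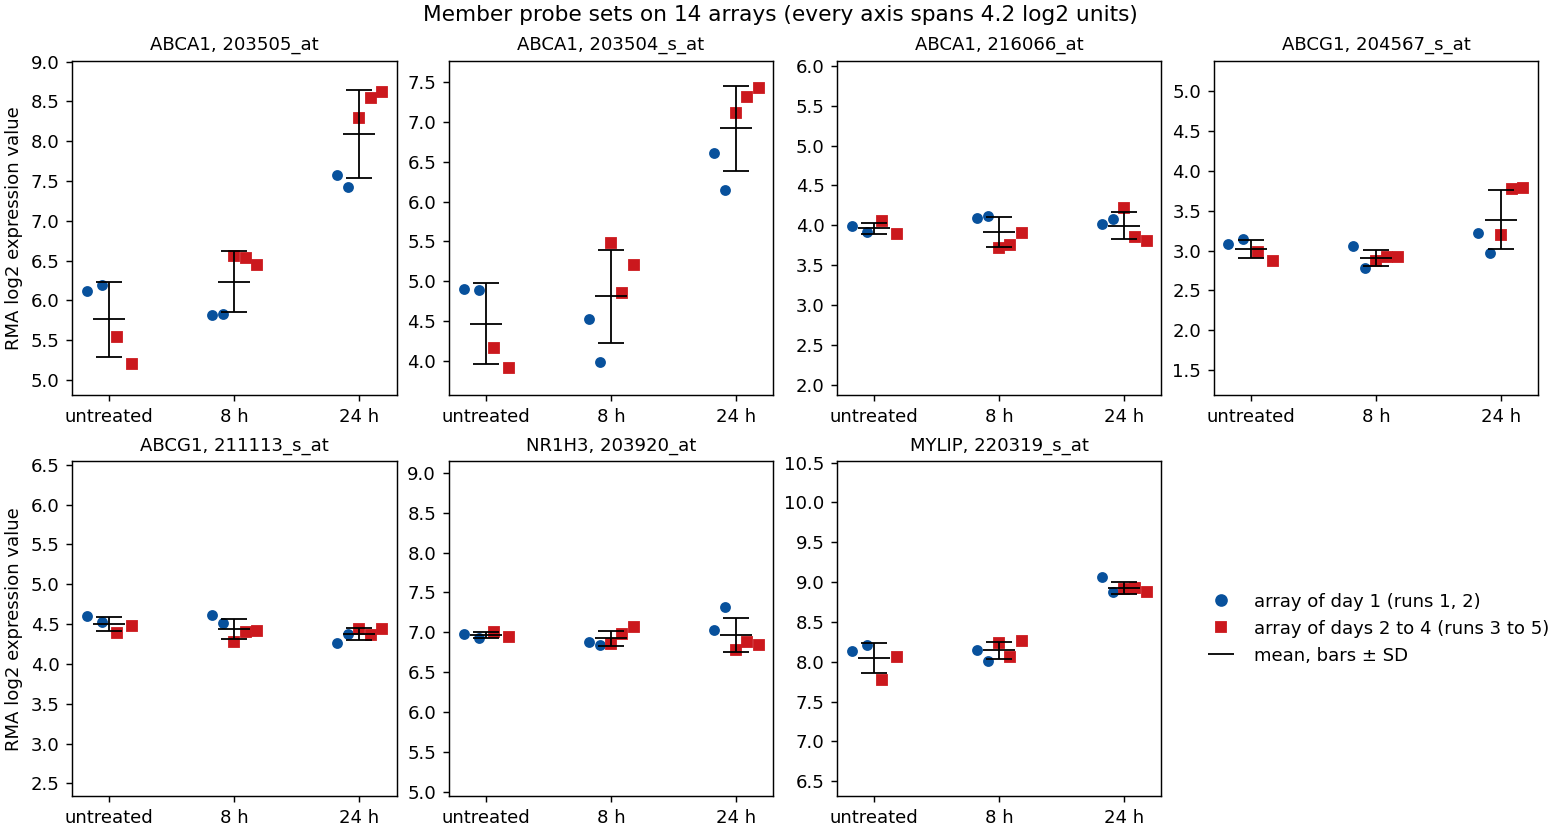
RMA log2 expression value of each member probe set (vertical axis, 4.2 log2 units in every panel) on the 14 arrays, by time in dexamethasone; circles are arrays of day 1, squares those of days 2 to 4, and bars show mean ± SD. ABCA1 203505_at and 203504_s_at and MYLIP stand apart at 24 h, and ABCG1 204567_s_at is high on 2 of its 5 arrays at 24 h.

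The runs divided ABCA1 at 8 h. In runs 1 and 2, both of day 1, 203505_at was lower at 8 h than in the untreated cells of the same run, by -0.30 and -0.36. In runs 3 and 4, of days 2 and 3, it was higher by 1.01 and 1.23. On 203504_s_at the same 4 differences were -0.38, -0.90, 1.32 and 1.29. Both groups of arrays took part in this: the untreated mean of 203505_at was 6.15 on day 1 and 5.38 on days 2 and 3, whereas the 8 h mean was 5.82 on day 1 and 6.51 on days 2 to 4. The difference of 0.47 between the group means, which also hold the 8 h array of run 5, thus mixes runs that went opposite ways.

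The step between 8 h and 24 h did not divide the runs in this way. On 203505_at it was 1.76, 1.60, 1.74, 2.17 and 2.0 in runs 1 to 5, and on 203504_s_at 2.08, 2.16, 1.63, 2.22 and 2.46. All 5 runs were higher at 24 h. The 24 h against untreated difference was positive in all 4 runs that have both, but smaller on day 1. On 203505_at it was 1.46 and 1.24 in runs 1 and 2 and 2.75 and 3.41 in runs 3 and 4. On 203504_s_at it was 1.70 and 1.26 in runs 1 and 2 and 2.95 and 3.51 in runs 3 and 4.

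**Figure D2:**
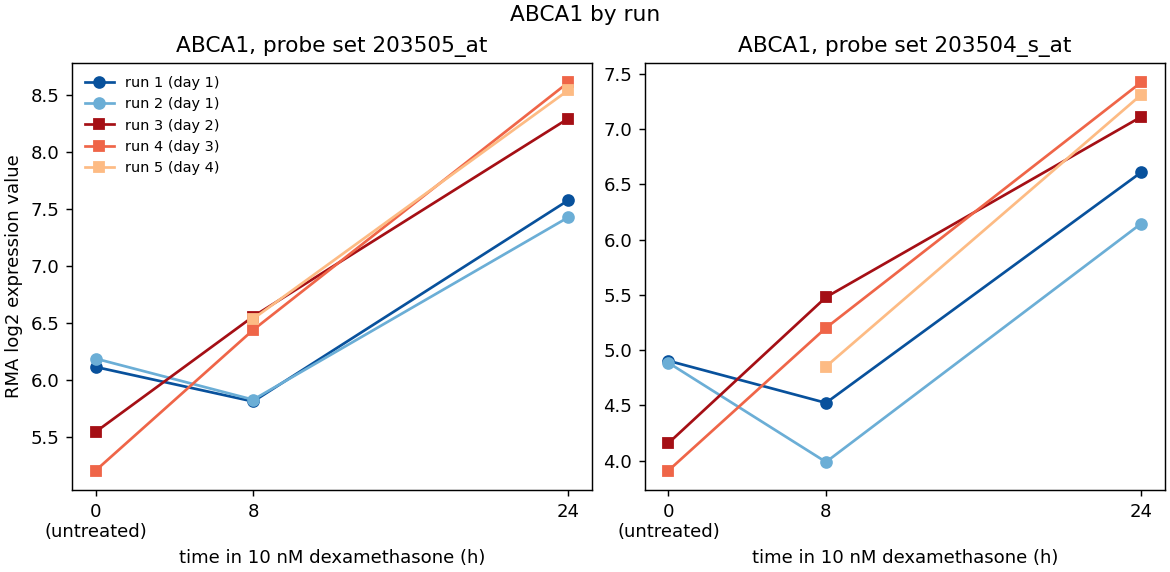
ABCA1 by run: RMA log2 expression value (vertical axis) against hours in 10 nM dexamethasone (horizontal axis) for probe sets 203505_at and 203504_s_at, 1 line per run. The lines of runs 1 and 2 dip at 8 h while those of runs 3 and 4 climb, and all 5 runs climb between 8 h and 24 h.

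Other probe sets were split by day too, in either direction. Of all 19070, 1046 (5.49%) were lower at 8 h in both runs of day 1 and higher in runs 3 and 4, as ABCA1 was, and 1610 (8.44%) showed the opposite signs, by a rule written after the ABCA1 values were seen. Of the 7 member probe sets, 2 had the first pattern, both of ABCA1. The separation was measured as the lower of runs 3 and 4 minus the higher of runs 1 and 2. It was 1.67 for 203504_s_at, the widest of all probe sets in this direction, and 1.32 for 203505_at, which 4 others exceeded. With the separation taken in either direction, 2 probe sets exceeded 203504_s_at, both split the other way, and 12 exceeded 203505_at, 8 of them split the other way. In the direction of ABCA1 the wider ones were its other probe set, TBC1D16 with 1.59, HNRNPD with 1.43 and ABCB4 with 1.33. For MYLIP the separation was 0.18, and 3253 probe sets, itself included, were at least as widely separated in either direction.

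**Figure D3:**
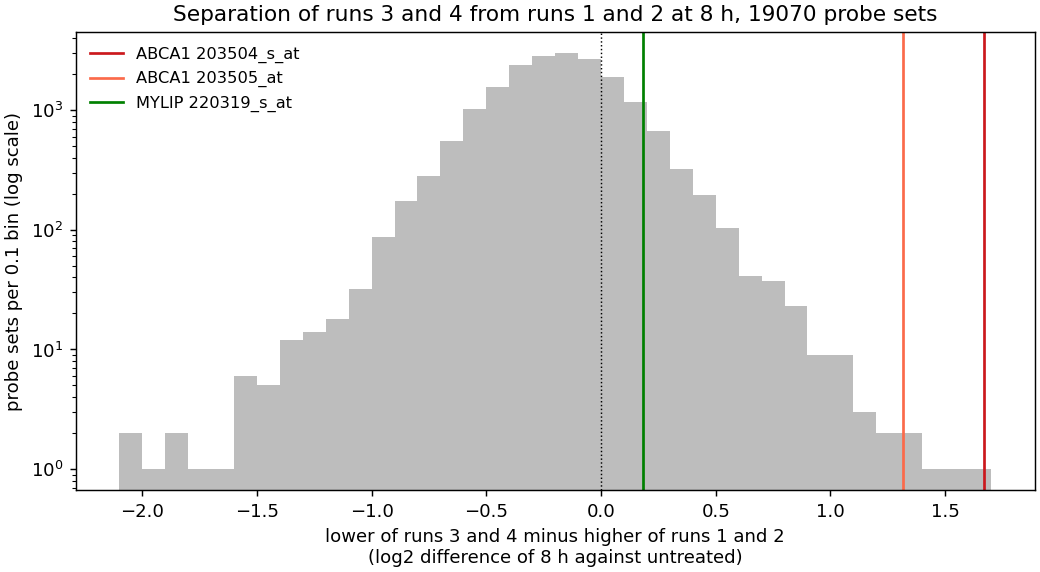
Histogram of the separation of runs 3 and 4 from runs 1 and 2 in the 8 h against untreated log2 difference (horizontal axis) over 19070 probe sets, with their number per 0.1 bin on a log scale (vertical axis). ABCA1 203504_s_at at 1.67 is the rightmost probe set and 203505_at at 1.32 lies near it, whereas MYLIP lies at 0.18; probe sets split the other way have negative values.

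MYLIP rose between 8 h and 24 h, and its runs were separated by day at 8 h too, though by less than those of ABCA1. Its values in untreated cells of runs 1 to 4 were 8.14, 8.21, 7.77 and 8.07. After 8 h runs 1 to 5 gave 8.15, 8.01, 8.23, 8.27 and 8.06, and after 24 h they gave 9.06, 8.88, 8.91, 8.87 and 8.93. The 24 h arrays lay above all others and within 0.19 of each other, while 8 h and untreated arrays overlapped. Of all probe sets, 16.3% had 24 h arrays that lay entirely above the untreated arrays, and 10.6% had 24 h arrays entirely above the 8 h arrays.

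At 24 h MYLIP averaged 8.93 ± 0.08 (SD, n = 5) against 8.05 ± 0.19 in untreated cells (SD, n = 4), a log2 difference of 0.88 with an SE of 0.09, or 1.85-fold (limma adjusted p = 4.99e-07). Against 8 h cells, with a mean of 8.14 ± 0.11 (SD, n = 5), the difference was 0.79 with an SE of 0.08, or 1.73-fold (limma adjusted p = 3.13e-06). The 8 h mean differed from the untreated mean by 0.10, with a 95% interval from -0.09 to 0.28 (limma adjusted p = 0.559). The 24 h against 8 h difference was between 0.61 and 0.91 in all 5 runs, and the 24 h against untreated difference between 0.67 and 1.14 in all 4 runs. The 8 h against untreated differences of runs 1 to 4 were 0.02, -0.20, 0.46 and 0.20.

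ABCG1 was near the lower limit of the arrays on both of its probe sets, so small differences there have little signal behind them. The mean of 204567_s_at over all arrays exceeded that of 5.98% of all probe sets and that of 211113_s_at exceeded 27.9%. On 204567_s_at, runs 1 to 4 gave 3.08, 3.14, 2.99 and 2.87 in untreated cells. The 8 h arrays of runs 1 to 5 read 3.05, 2.78, 2.86, 2.92 and 2.92, and the 24 h arrays read 3.22, 2.97, 3.20, 3.79 and 3.77. Runs 4 and 5 were high at 24 h, and the other 24 h arrays lay within or near the range of the 8 h and untreated arrays.

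This ABCG1 probe set rose by 0.48 with an SE of 0.14 at 24 h against 8 h (limma adjusted p = 0.0141) and was higher in 5 of 5 runs, by 0.17 to 0.87. The call ended without run 5 (log2 difference 0.39, adjusted p = 0.0670) and within day 1 (0.18, adjusted p = 0.357). The 24 h against untreated difference was 0.37 with an SE of 0.14 and missed the threshold (limma adjusted p = 0.0562); it was 0.65 within days 2 to 4 (adjusted p = 0.00696) and -0.02 within day 1 (adjusted p = 0.937). Between 8 h and untreated cells it was -0.12 (adjusted p = 0.698). On 211113_s_at the values ran from 4.39 to 4.60 in untreated cells, from 4.28 to 4.62 at 8 h and from 4.27 to 4.44 at 24 h. Its differences were -0.12 at 24 h and -0.06 at 8 h against untreated, and -0.07 at 24 h against 8 h, with adjusted p between 0.223 and 0.721. The 2 probe sets of ABCG1 thus disagreed, and their mean gave 0.21 at 24 h against 8 h (adjusted p = 0.0868).

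NR1H3, the alpha form of the receptor and the only form with a probe set here, was measured in the middle of the array's range and its groups overlapped. In untreated cells runs 1 to 4 gave 6.98, 6.93, 7.0 and 6.94. At 8 h runs 1 to 5 gave 6.87, 6.84, 6.86, 7.07 and 6.98, and at 24 h they gave 7.03, 7.32, 6.77, 6.84 and 6.87. Run 2 was the highest array at 24 h and of all arrays. The 24 h against untreated difference was 0.00, with a 95% interval from -0.20 to 0.21 (limma adjusted p = 0.985). Its 8 h against untreated difference was -0.04, with an interval from -0.24 to 0.16 (adjusted p = 0.860), and at 24 h against 8 h it was 0.04, with an interval from -0.15 to 0.23 (adjusted p = 0.819).

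Of the 4 member probe sets that were tested, 1 was called higher and 0 lower at 24 h against untreated, where 18.5% of all probe sets were called higher and 18.6% lower. At an unadjusted p under 0.05, limma gave 2 and 0. For 8 h against untreated, 0 were called in either direction, also at an unadjusted p under 0.05, with 7.75% of all probe sets called higher and 9.13% lower. Between 24 h and 8 h, 2 were called higher and 0 lower, with the same counts unadjusted, beside 13.3% and 11.7% of all probe sets. With 4 probe sets these counts describe the members and no more. The counts of the gene lists below are read against the same shares, which cover all probe sets, whereas a listed gene is read by its brightest probe set.

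**Figure D4:**
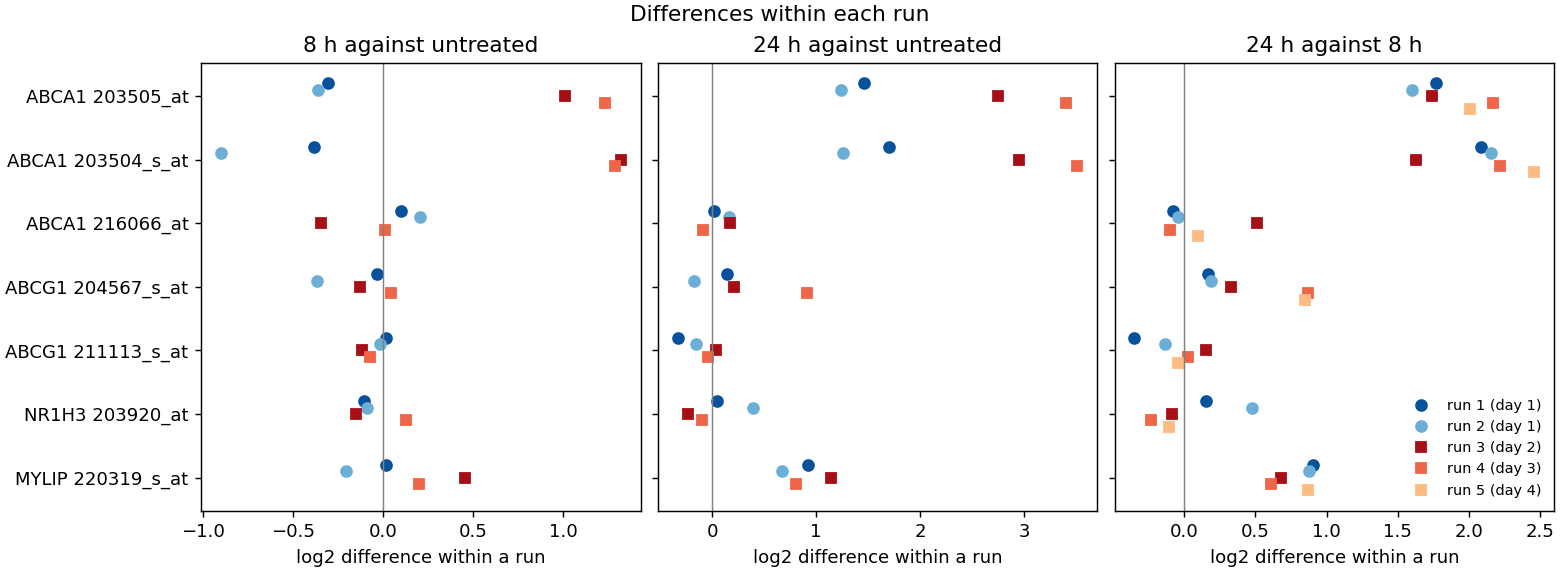
Log2 difference within each run (horizontal axis) for the 7 member probe sets (rows), at 8 h against untreated, 24 h against untreated and 24 h against 8 h; each point is 1 run, with circles for day 1 and squares for days 2 to 4. ABCA1 203505_at and 203504_s_at lie on both sides of 0 at 8 h by day but between 1.60 and 2.46 at 24 h against 8 h, and MYLIP lies between 0.61 and 0.91 there.

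Over the 14 arrays ABCA1 203505_at had a Pearson correlation of 0.909 with MYLIP, 0.785 with ABCG1 204567_s_at and -0.11 with NR1H3. After each group's mean was subtracted, which leaves the differences among arrays of a group, the values were 0.24 with MYLIP, 0.683 with ABCG1 204567_s_at and -0.45 with NR1H3. The arrays share groups, runs and processing, and these correlations are descriptions. The genes most like ABCA1 203505_at over the 14 arrays were NIPBL (0.978), TBL1X (0.975), VWA5A (0.971), EVI2B (0.971) and IRS2 (0.971). NIPBL loads cohesin onto chromatin, TBL1X is a subunit of the nuclear receptor corepressor complex and IRS2 relays insulin signals. Without run 5 the nearest gene was IL13RA1 (0.98 over 12 arrays). Among arrays of a group, the nearest were FBXL5 (0.937), C1orf115 (0.928), HLA-E (0.917), MAP2K5 (0.917) and BICRA (0.912), and none of these was among the 5 named first.

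Of 16 other genes that were listed as raised by liver X receptors in some tissue and that had a probe set, 2 were called higher and 7 lower at 24 h against untreated. Of all probe sets, 18.5% were called higher and 18.6% lower. The median log2 difference of the 16 was -0.14, beside -0.01 over all probe sets. Some of those not called lay near the lower limit of the arrays, among them CYP7A1, CD5L and ABCG5, with means over all arrays of 2.84, 3.36 and 3.39. MERTK, a receptor for dying cells, rose by 0.71 with an SE of 0.13 (adjusted p = 0.000357), to 5.58 ± 0.24 at 24 h against 4.87 ± 0.20 in untreated cells. On its dimmer probe sets MERTK differed by 0.17 and -0.02, and the mean of its 3 probe sets rose by 0.28 (adjusted p = 0.0032). SMPDL3A, a secreted phosphodiesterase, rose by 0.43 with an SE of 0.09 (adjusted p = 0.000669). The targets that make fatty acids fell. SCD, the desaturase that makes oleate, was at 10.00 ± 0.48 at 24 h against 11.15 ± 0.47 in untreated cells, a difference of -1.15 with an SE of 0.24 (adjusted p = 0.000948). FASN differed by -0.71 (adjusted p = 0.00799), ACACA by -0.59 (adjusted p = 0.0072) and SREBF1, their regulator, by -0.44 (adjusted p = 0.0043). FASN differed by -0.48 within day 1 and by -1.02 within days 2 to 4, and its dimmer probe set by 0.04. The ACACA arrays of the 2 groups overlapped, and its dimmer probe set differed by -1.10. CETP, the cholesteryl ester transfer protein, was lower by -1.13 with an SE of 0.15 (adjusted p = 1.54e-05). LPCAT3 was lower by -0.48 (adjusted p = 8.65e-05), and APOE by -0.44 on its brightest probe set (adjusted p = 0.00519), whereas the mean of the 3 APOE probe sets gave -0.11 (adjusted p = 0.376). The mean per gene also lowered FASN to -0.33 and LPCAT3 to -0.29, both still called.

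At 8 h, 0 of the 16 targets were called higher, also at an unadjusted p under 0.05, and 1 lower, SREBF1 at -0.45 (limma adjusted p = 0.01). With the run as a block 4 were called lower. The runs differed here too: FASN gave 0.18, 0.16, -0.92 and -0.66 in runs 1 to 4, and ACACA 0.08, 0.20, -0.57 and -0.51. SCD gave -0.18, -0.12, -0.76 and -0.62, whereas SREBF1 fell more in runs 1 and 2, by -0.66, -0.60, -0.28 and -0.45. Untreated FASN was at 7.67 and 7.69 in runs 1 and 2 and at 8.71 and 8.53 in runs 3 and 4. Between 24 h and 8 h, 2 were called higher at 24 h, SMPDL3A and MERTK, and 3 lower, among them SCD at -0.84 and CETP at -0.69.

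Of 11 partners and cofactors of the receptors with a probe set, 4 were called higher and 0 lower at 24 h against untreated, beside 18.5% and 18.6% of all probe sets. Unadjusted counts were 5 and 0, and the median was 0.34. The calls of RXRA and NCOA2 among the 4 depended on single arrays. TBL1X, the corepressor subunit, reached 10.58 ± 0.11 at 24 h against 9.22 ± 0.23 in untreated cells, a difference of 1.36 with an SE of 0.14 (adjusted p = 8.29e-07). NCOA1, a coactivator of steroid receptors, rose by 0.91 with an SE of 0.11 (adjusted p = 7.21e-06). RXRA, a retinoid X receptor, rose by 0.37 (adjusted p = 0.0184), a call that ended without untreated replicate 1 (0.30, adjusted p = 0.0747) and with the mean of its probe sets (0.18, adjusted p = 0.106). Its dimmer probe set differed by -0.01 (adjusted p = 0.951). RXRB, another such receptor and brighter on these arrays, differed by 0.14 and was not called (adjusted p = 0.0674). The NCOA2 call ended when any of 6 arrays was left out. It held with the mean of its probe sets (0.44, limma adjusted p = 0.0147) and with the run as a block (0.43, limma adjusted p = 0.000226). At 8 h, 2 were called higher and 0 lower: TBL1X by 0.52 (adjusted p = 0.0170) and NCOA1 by 0.45 (adjusted p = 0.0109). TBL1X carried the split by day, with 8 h against untreated differences of 0.09 and 0.01 in runs 1 and 2 and of 1.0 and 0.99 in runs 3 and 4, and its call ended without untreated replicate 4 (0.42, adjusted p = 0.0634). None of its dimmer probe sets was called at 8 h, with differences of 0.28 to 0.57, while the mean of its probe sets was called (0.42, adjusted p = 0.0403). Set against 8 h cells, 3 were called higher at 24 h, or 5 with the run as a block, and 0 lower. The call of PPARGC1A among them ended when any of 9 arrays was left out.

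Of 8 enzymes that make or remove oxysterols, 2 were called higher and 1 lower at 24 h against untreated, beside 18.5% and 18.6% of all probe sets. CH25H, which makes 25-hydroxycholesterol, a ligand of the receptors, rose by 0.69 with an SE of 0.11, to 3.99 ± 0.18 at 24 h against 3.29 ± 0.05 in untreated cells (adjusted p = 5.52e-05). These are values near the lower limit of the arrays. EBP, a sterol isomerase of cholesterol synthesis, fell by 1.02 with an SE of 0.14 (adjusted p = 1.8e-05), to 9.22 ± 0.12 at 24 h against 10.24 ± 0.31 in untreated cells. The call of CYP3A4, higher by 0.22, ended when any of 6 arrays was left out and with the mean of its probe sets (0.14, adjusted p = 0.0767). At 8 h, 0 were called in either direction, 1 higher unadjusted, and 1 higher with the run as a block. EBP went opposite ways by day there, with 8 h against untreated differences of 0.59, 0.49, -0.43 and -0.37 in runs 1 to 4. Compared with 8 h cells, CH25H at 24 h was called higher by 0.46 and EBP lower by -1.08.

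Of 12 genes of sterol storage and transport, 6 were called higher and 5 lower at 24 h against untreated, beside 18.5% and 18.6% of all probe sets, with a median of 0.15. The calls of SOAT2 and CAV1, both lower, ended when any of 5 arrays was left out for SOAT2, and without untreated replicate 1 for CAV1 (-0.38, adjusted p = 0.0622). The dimmer CAV1 probe set was lower by -0.92 (limma adjusted p = 7.77e-05). The mean of the CAV1 probe sets was lower by -0.74 (limma adjusted p = 0.000263). Lysosomal genes were among those called higher. NPC2, which hands cholesterol to NPC1 for release from lysosomes, rose by 0.86 with an SE of 0.07 (adjusted p = 6.84e-08), to 11.36 ± 0.11 at 24 h against 10.50 ± 0.11 in untreated cells. NPC1 was called higher as well, as was LIPA, the lysosomal lipase, by 0.37, and the LIPA call ended when either of 2 arrays was left out. OSBPL2 rose by 0.91 with an SE of 0.19 (adjusted p = 0.000832), while its relative OSBPL1A fell by 1.84 with an SE of 0.10 (adjusted p = 4.05e-10). SCARB1, the receptor for high-density lipoprotein, was at 6.13 ± 0.10 at 24 h against 7.30 ± 0.23 in untreated cells, a difference of -1.17 with an SE of 0.11 (adjusted p = 1.72e-07), or -0.49 with the mean of its 3 probe sets (adjusted p = 2.3e-05). SOAT1, which esterifies cholesterol for storage, was lower by -0.36 (adjusted p = 0.00144).

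At 8 h, 1 of the 12 was called higher and 2 lower, OSBPL1A by -0.67 and SCARB1 by -0.79, which came to -0.37 with the mean of its probe sets. The one called higher, OSBP, at 0.33, lost its call when any of 3 arrays was left out and with the mean of its probe sets (0.26, adjusted p = 0.14). With the run as a block 3 were called higher. At 24 h against 8 h, 2 were called higher, or 5 with the block, and 3 lower.

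MYLIP marks the receptors of the low-density lipoprotein family for breakdown as proteins, and the transcripts of its substrates were read beside it. LRP8 fell by 1.13 with an SE of 0.16 at 24 h against untreated (adjusted p = 3.24e-05) and VLDLR by 0.74 with an SE of 0.12 (adjusted p = 7.33e-05). VLDLR was already lower at 8 h, by -0.63 (adjusted p = 0.0011). For LRP8 the 8 h difference was -0.35 on this probe set (limma adjusted p = 0.180) and -0.49 on its dimmer one (limma adjusted p = 0.0057). SCAP, the escort of the sterol-regulated factors, rose by 0.26 (adjusted p = 0.00164). These 3 were the calls among 10 genes of this list at 24 h against untreated, 1 higher and 2 lower beside 18.5% and 18.6% of all probe sets, and the median was -0.15. At 24 h against 8 h, 2 were called higher, SCAP by 0.34 and INSIG2 by 0.23, and 3 lower: LSS, lanosterol synthase, by -0.81, LRP8 by -0.78 and HMGCS1, which feeds the pathway, by -0.67. The calls of INSIG2 and HMGCS1 ended when any of 6 and of 5 arrays was left out. That of HMGCS1 held with the mean of its probe sets (-0.78, limma adjusted p = 0.0122).

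The cholesterol synthesis genes also differed by day, in the opposite sense to ABCA1. In untreated cells HMGCS1 was at 10.16 and 10.16 in runs 1 and 2 but at 11.32 and 11.22 in runs 3 and 4. LSS was at 9.28 and 9.32 in runs 1 and 2 and at 10.00 and 10.12 in runs 3 and 4. At 8 h against untreated, LSS was higher in runs 1 and 2 by 1.16 and 1.0 and lower in runs 3 and 4 by -0.33 and -0.58, and HMGCS1 was higher by 0.76 and 0.99 and lower by -0.36 and -0.34. SQLE gave 0.54, 0.53, -0.36 and -0.33. Measured with runs 1 and 2 above runs 3 and 4, the separation was 1.34 for LSS and 1.10 for HMGCS1 on these probe sets, and 1.58 for HMGCS1 on its dimmer one. IDI1 was the only gene of this list called higher at 8 h, by 0.46 (adjusted p = 0.0180). Its differences were 0.94 and 0.74 in runs 1 and 2 but 0.14 and 0.08 in runs 3 and 4, and the call ended when either of 2 arrays was left out. With the mean of its probe sets the call held (0.44, limma adjusted p = 0.0148). Untreated ABCA1 was thus higher on the day on which the untreated synthesis transcripts were lower. The part of the day in either was not tested.

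Among relatives of the efflux pumps, 12 genes of ABC transporter subfamilies A and G other than ABCA1 were tested, ABCG1 among them. After 24 h, against untreated cells, 4 were called higher and 0 lower, also unadjusted, beside 18.5% and 18.6% of all probe sets, with a median of 0.01. ABCA7, which also loads lipid onto apolipoproteins, rose by 0.72 with an SE of 0.10 (adjusted p = 1.55e-05), to 7.44 ± 0.16 at 24 h against 6.72 ± 0.20 in untreated cells. ABCA5 rose by 0.63 with an SE of 0.10 (adjusted p = 8.32e-05) and was the one called at 8 h, by 0.40 (adjusted p = 0.01). The ABCA3 and ABCA12 calls each ended when any of 4 arrays was left out, and pairing by run ended that of ABCA3 as well (0.21, adjusted p = 0.0507). Between 24 h and 8 h ABCA7 was called, by 0.68, and 3 were called with the run as a block. ABCA1, at 2.33, had a larger difference at 24 h against untreated than any of the 12, but it was the gene around which the members were chosen.

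**Figure D5:**
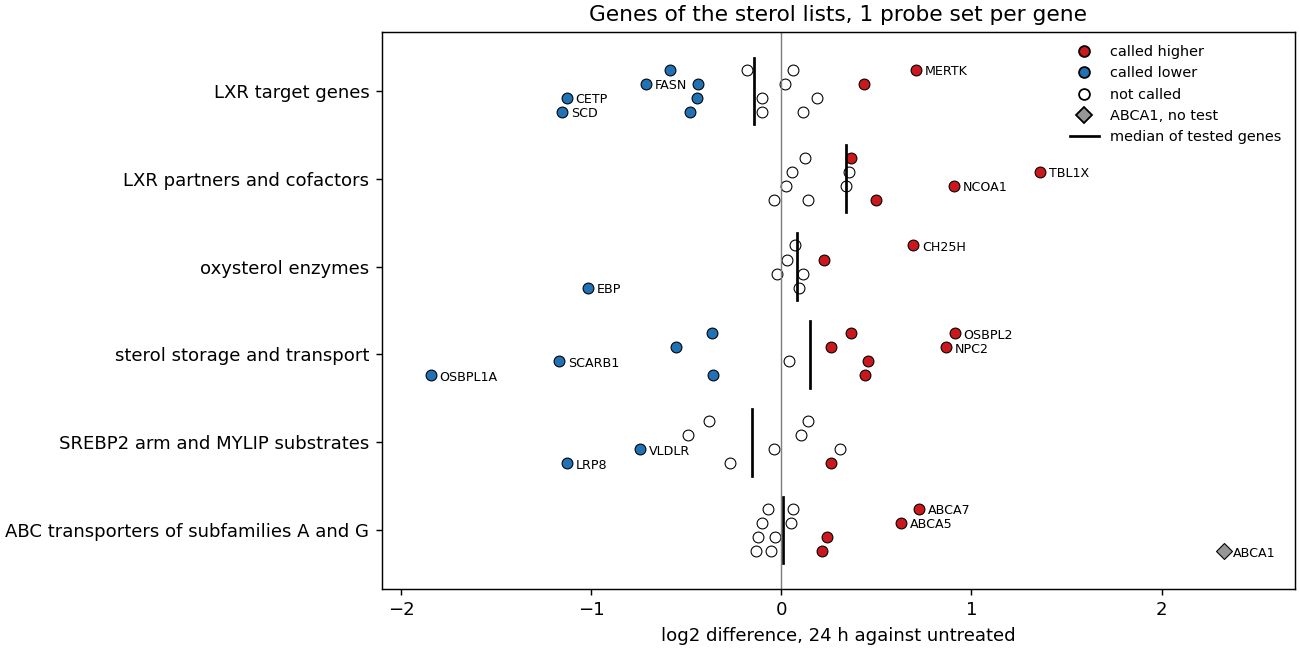
Log2 difference at 24 h against untreated (horizontal axis) for the genes of 6 lists (rows), each by its brightest probe set; filled circles passed an adjusted p below 0.05, open circles did not, vertical bars are medians of the tested genes, and the ABCA1 diamond was not tested. ABCA1, around which the members were chosen, lies at 2.33, beyond every gene of the lists, while SCD at -1.15 and CETP at -1.13 lie on the lower side among the target genes.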

How the data were processed

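The data are 14 arrays of RNA from RS4;11 cells. The authors processed the scans with RMA in the affy package (versions not given in the sources used here), left out 1 untreated array after quality control and deposited log2 values. The methods name Agilent arrays, whereas the labels name Affymetrix. Group, run and day came from the labels. The lists of pathway genes were written from common knowledge, and members and lists were chosen with earlier results of these data known.

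Probe sets were named from the platform annotation: 19070 had 1 gene, 1043 several and 2164 none. All 19070 were fitted over the 14 arrays with limma 3.58.1 in R 4.3.3 (lmFit and eBayes, no block, no filter), with Benjamini-Hochberg adjustment within each comparison, and called at an adjusted p below 0.05. ABCA1 was given without p-values. Listed genes used the probe set with the highest mean. The fit was tested on simulated data with independent noise on each array. That simulation held no run or day effect, so it does not cover either. Nothing states that replicates came from separate cultures, so p-values measure the spread between arrays, whose number limits the precision. Sequences are from RefSeq, GRCh38.p14; of the members, ABCA1, MYLIP, NR1H3 and NR1H2 matched a promoter window.

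Genes named were all member probe sets, the 5 genes most like ABCA1, up to 2 rises and 2 falls per list and comparison, and 3 genes as a check of the response. The other genes named were chosen after their values were seen. Runs pair the arrays, as the labels give them. Residuals of arrays of the same run correlated with r between 0.341 and 0.56 in all 13 pairs. Different runs of day 1 correlated alike, for example 0.501 for 24 h replicate 1 with 8 h replicate 2. Pairs from different later days reached 0.397, whereas pairs of a day 1 array with a later array were negative. These correlations therefore do not separate run from day. Alternatives were the methods' variance filter and mean per gene, a mean of all probe sets per gene, a filter on dim probe sets, cyclic loess, a shift to the same median, blocks by run, title number or day, array weights, a trended robust fit, only the groups compared, a stricter threshold, each array or run 5 left out, and fits within day 1 or days 2 to 4. For the lists, the block and the arrays left out were added after seeing the data.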

Additional observations from a re-analysis of the deposited data

Results flagged for a closer look

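On MYLIP, replicate 1 of the 24 h group (run 1) read 9.06, apart from the other 4 arrays of the group at 8.87 to 8.93. It was the only sample that stood apart among 21 groups of arrays of the member probe sets, and chance sets such a sample apart in about 1 group in 20. The 24 h calls of MYLIP held without it.

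At 8 h against untreated, ABCA1 went one way in each run of day 1 and the opposite way in runs 3 and 4. The mean of the runs of day 1 was -0.64 on 203504_s_at, and the mean of runs 3 and 4 was 1.31. On 203505_at these means were -0.33 and 1.12. This difference between days was not tested.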

How the results depend on the processing

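MYLIP kept its direction and its calls at 24 h under all 30 alternatives, with differences of 0.79 to 0.99 against untreated and 0.72 to 0.89 against 8 h. Members called at 24 h against 8 h (2 of 4) came to 1 with the mean per gene, with the filter on dim probe sets (ABCG1 204567_s_at then was not tested), at an adjusted p below 0.01, without run 5 and within day 1. At 24 h against untreated (1 of 4) they came to 2 under the methods' route, array weights, cyclic loess, the trended robust fit, the run as a random block and within days 2 to 4, and ranged from 1 to 2 with single arrays left out (2 without replicate 1, 2 or 3 of the 24 h group); the added call was ABCG1 204567_s_at. ABCA1 differences with the mean per gene were 1.60 at 24 h against untreated and 1.35 at 24 h against 8 h. Within day 1 and within days 2 to 4, the 24 h against untreated difference was 1.48 and 3.24 on 203504_s_at and 1.35 and 3.11 on 203505_at, and the 8 h against untreated difference was -0.64 and 1.14 on 203504_s_at and -0.33 and 1.14 on 203505_at. On 216066_at the 8 h against untreated difference was -0.05 in the main fit and 0.15 within day 1. The mean over the 3 ABCA1 probe sets, which follows the other probe sets more than this one, gave 0.26. The cause of these shifts was not tested. Of all probe sets, 7073 were called at 24 h against untreated, or 4295 genes under the methods' route, and 3220 at 8 h, or 1971 at an adjusted p below 0.01. With runs paired in the model (replicate block by run), 8325 were called at 24 h against untreated, 4673 at 8 h and 6428 at 24 h against 8 h, and no member call changed. No called list gene changed sign under cyclic loess, the shift or the block. The dim ABCG1 and ABCA1 216066_at probe sets limit what these arrays can show.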

Other observations

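The split of the 8 h response by day reached genes outside sterol handling. At 8 h against untreated, SLC7A11, the cystine carrier, differed by -1.67, -1.95, 0.58 and -0.40 in runs 1 to 4 on the more widely separated of its probe sets, and HNRNPD, an RNA-binding protein, by -0.36, -0.28, 1.21 and 1.15. CEBPB, a transcription factor of myeloid and metabolic genes, was lower in every run, by -1.98, -1.88, -0.81 and -0.53. The CEBPB, HNRNPD and SLC7A11 values were among the 12 probe sets with the widest separation of runs 3 and 4 above runs 1 and 2, were chosen after their values were seen, and are given as values. The opposite split, with runs 1 and 2 above runs 3 and 4, was widest for SDF2L1 and MANF, proteins of the endoplasmic reticulum. SDF2L1 differed by 1.16, 1.0, -0.85 and -0.93 in runs 1 to 4 and MANF by 1.08, 1.06, -0.66 and -0.75. HSPA5, a chaperone of the same compartment, differed by 1.04, 1.22, -0.37 and -0.63. They too were chosen after their values were seen.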
